A study of Tupaia belangeri with 15 samples.

Results

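The levels of 7 features were followed through the cell classes of the tree shrew (TS, Tupaia belangeri) retina: the genes IGF2BP1, IGF2BP2, IGF2BP3, LIN28A, LIN28B and HMGA2, and the antisense feature IGF2BP2-AS-4. They were taken by name from the 83605 features of the count matrices. IGF2BP2 and IGF2BP2-AS-4 were picked for levels that were lower after infancy in several classes, so their infant, mature and senile values are described below without a test, except for the difference between the senile and mature stages. The other 5 were included as members of the same network. Of these, IGF2BP3, LIN28B and HMGA2 were tested between all stages in the classes where they passed a filter on low counts. IGF2BP1 and LIN28A passed it in no class and were not tested between stages.

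Nuclei were isolated from frozen whole retinas of 5 infant, 5 mature and 5 senile TSs and profiled by droplet single-nucleus RNA-seq, which reads the 3′ ends of transcripts and counts each captured molecule once as a unique molecular identifier (UMI). The comparison asked how each cell type of the retina changed over the postnatal lifespan. The labels name the tissue and the developmental stage (Infancy, Mature or Senile) and give no genotype, strain, treatment or sex, and no treatment is described for any group. By the study's methods the infant and mature animals came from one animal centre and the senile animals from another institute, so the senile stage and the source of the animals cannot be told apart. The libraries are labelled as numbered samples of a stage, and the p-values measure the spread between these samples.

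The IGF2BP proteins bind target mRNAs in the cytoplasm and protect, localize or translate them, and they are best known from embryos, stem cells and tumours. LIN28A and LIN28B bind the precursors of let-7 microRNAs and block their maturation, while mature let-7 represses the mRNAs of LIN28B, the IGF2BPs and HMGA2, a chromatin protein of proliferating cells. In the vertebrate retina this network is known from progenitor cells, where it takes part in the timing of neurogenesis, and from Müller cells, the radial glia that can return to a progenitor state in fish.

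Of 120437 deposited barcodes, 119765 passed the filters on nuclei, and 97564 of these were assigned to 9 classes by marker genes: cones, rods, bipolar cells (BCs), horizontal cells (HCs), amacrine cells (ACs), retinal ganglion cells (RGCs), Müller cells, astrocytes and microglia. Of 68 markers, 61 were highest in their own class, although the same markers made the assignment, so this is no independent check. The libraries held 4269 to 9856 barcodes and 13429873 to 58734300 UMIs, the lowest total in a senile and the highest in a mature retina. One noncoding feature, LINC-FRMD8-1, took 12.1% to 21.2% of the UMIs of a library, and no pair of libraries shared more than 0.422% of the barcodes of the smaller one. Levels below are UMIs of a feature per 1000000 UMIs of the class in 1 retina (CPM), and a class was used in a retina only with at least 10 nuclei.

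The members split into widely detected and nearly silent features. IGF2BP2 (TSDBGID.4193) gave 9684 UMIs in all filtered nuclei and LIN28B (TSDBGID.21005) gave 16894. The counts were 1628 UMIs for IGF2BP3 (TSDBGID.22537), 1436 for IGF2BP2-AS-4 and 1360 for HMGA2 (TSDBGID.23705). LIN28A (TSDBGID.7652) had only 82 UMIs and IGF2BP1 (TSDBGID.9879) only 29, and neither passed the filter on low counts in any class. The filter kept IGF2BP2 in 6 classes, LIN28B in 5, IGF2BP3 and IGF2BP2-AS-4 in 4 each, and HMGA2 in 2.

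The members also differed in where their UMIs lay, as far as UMIs follow the number and depth of the nuclei of a class. Of the IGF2BP2 UMIs in the 9 classes, 74.2% came from BCs, HCs, ACs and RGCs, the neurons of the inner retina, and 19.9% from Müller cells and astrocytes. For LIN28B, 54.2% came from these inner retinal neurons, 44.8% from photoreceptors and 0.930% from Müller cells and astrocytes. The macroglial share was 63.7% for HMGA2, and microglia, with few nuclei, supplied 18.8% of the IGF2BP3 UMIs. Of the 78 LIN28A UMIs in the 9 classes, 83.3% were in photoreceptors.

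IGF2BP2, an RNA-binding protein of the metabolic and growth-factor mRNAs, was high in infant Müller cells, BCs, astrocytes and ACs. In 6 of the 9 classes, among them rods at few UMIs, every later retina lay below every infant one as listed. Over the 9 classes, 0.1% to 0.797% of the genes fitted had every mature retina below every infant one. For senile retinas the share was 0.202% to 1.08%. Müller cells had the highest mean level at each stage. Among these 6 classes the ratio of infant to mature means was highest in BCs and lowest in Müller cells. Mature BCs and cones were near or under the free-RNA background (below) and mature rods gave few UMIs, so the order of these classes is not fixed. These values chose the gene, so they describe the pattern and carry no test.

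In BCs, the interneurons that carry photoreceptor signals inward, IGF2BP2 was at 62.4, 59.8, 70.6, 60.3 and 49.9 CPM in the 5 infant retinas. The mature retinas gave 5.4, 4.3, 12.7, 2.9 and 3.1 CPM, and the senile retinas 5.9, 0, 1.3, 5.0 and 2.3 CPM. Every infant retina lay above every later one, with the third mature retina the highest of the later ones, and the mature and senile values overlapped. The mean was 60.6 ± 7.36 CPM (SD, n = 5) in infancy, 5.71 ± 4.05 CPM in mature BCs, a 10.6-fold difference, and 2.90 ± 2.51 CPM in senile BCs, a 20.9-fold difference. On the log2 scale of the fit the differences from infancy were -3.41 (SE 0.45) and -4.23 (SE 0.49). Of all 18558 genes fitted in BCs, 0.797% had every mature retina below every infant one and 0.431% had every senile retina below every infant one. Since IGF2BP2 was chosen on this contrast, nothing is read from its place among them.

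Cones, the dominant photoreceptors of the TS, had IGF2BP2 at 11.9, 13.6, 15.6, 14.5 and 14.9 CPM in infancy. Mature cones had 1.9, 1.2, 4.1, 2.2 and 0.7 CPM, and senile cones 1.5, 1.1, 0.7, 1.2 and 0.5 CPM. The infant group stood apart from both later groups, which overlapped. The mean was 6.93-fold lower in mature and 14.0-fold lower in senile than in infant cones, and the share of all genes with retinas separated in that direction was 0.657% and 0.499%. Cones were barely above the free-RNA background in infancy and under it at both later stages (below). The part of free RNA in the cone difference was not tested. In rods, whose nuclei were scarce, the infant values were 25.3, 36.9, 25.9, 39.2 and 34.7 CPM from 43 UMIs. Mature rods had 13.2, 0, 14.3, 0 and 0 CPM from 10 UMIs, and the 4 senile retinas with enough rods had no UMI, for which a count of 3 would be 8.08 CPM over the group and 21.6 to 62.7 CPM in single retinas, a range that reaches the infant values. The infant rods were above the mature rods as listed, but the limit for a count of 3 in the second mature retina, 26.9 CPM, was above the lowest infant values. The background shares were 0.524% and 1.08% at the mature and senile stages, over the 3243 genes that passed the filter on low counts in rods. IGF2BP2 was not among these genes.

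In ACs, the inhibitory interneurons, the stages lay closer together. Their infant IGF2BP2 levels were 43.2, 33.9, 51.4, 40.5 and 46.0 CPM. Mature ACs had 12.1, 9.7, 21.7, 10.6 and 8.3 CPM and senile ACs 10.4, 5.8, 6.3, 14.0 and 5.2 CPM. No infant retina overlapped a later one, and the mean was 3.44-fold lower at the mature and 5.16-fold lower at the senile stage (background 0.593% and 0.21%). RGCs, the output neurons, had 24.9, 24.9, 23.9, 27.5 and 23.9 CPM in infancy. Mature RGCs had 9.8, 5.1, 16.5, 6.3 and 0 CPM and senile RGCs 8.4, 6.9, 4.7, 7.3 and 4.0 CPM. The infant RGCs again stood above all later ones, by 3.32-fold and 4.01-fold in the means (background 0.343% and 0.202%). HCs gave 20, 9 and 4 UMIs at the 3 stages, and their retinas overlapped.

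Müller cells kept the gene at every age. IGF2BP2 was at 128.8, 103.5, 126.6, 110.4 and 123.4 CPM in infant Müller cells. The mature values were 40.1, 52.3, 66.8, 19.9 and 49.8 CPM, and the senile values 79.7, 35.8, 29.8, 33.6 and 25.1 CPM. Each infant retina was above each later retina, the first senile retina was far above the other 4, and the mature and senile groups overlapped. The mean was 119 ± 11.01 CPM in infancy and 2.59-fold lower, at 45.8 ± 17.4 CPM, in mature and 2.91-fold lower, at 40.8 ± 22.1 CPM, in senile Müller cells (SD, n = 5 each, background 0.481% and 0.518%). Astrocytes, the glia of the nerve fibre layer, were at 67.2, 27.3, 82.3, 50.4 and 48.6 CPM in infancy. They were at 38.2, 26.7, 79.8, 21.0 and 0 CPM in the mature and 46.7, 20.6, 40.7, 9.6 and 32.2 CPM in the senile retinas. Here the 3 stages overlapped, and the mean was 1.66-fold and 1.84-fold lower than in infancy. The mature minus infant difference of the fit, -0.59, was -1.23 without the third and -0.33 without the fifth mature retina. Microglia, the immune cells of the retina, gave 6, 1 and 1 UMIs.

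**Figure D1:**
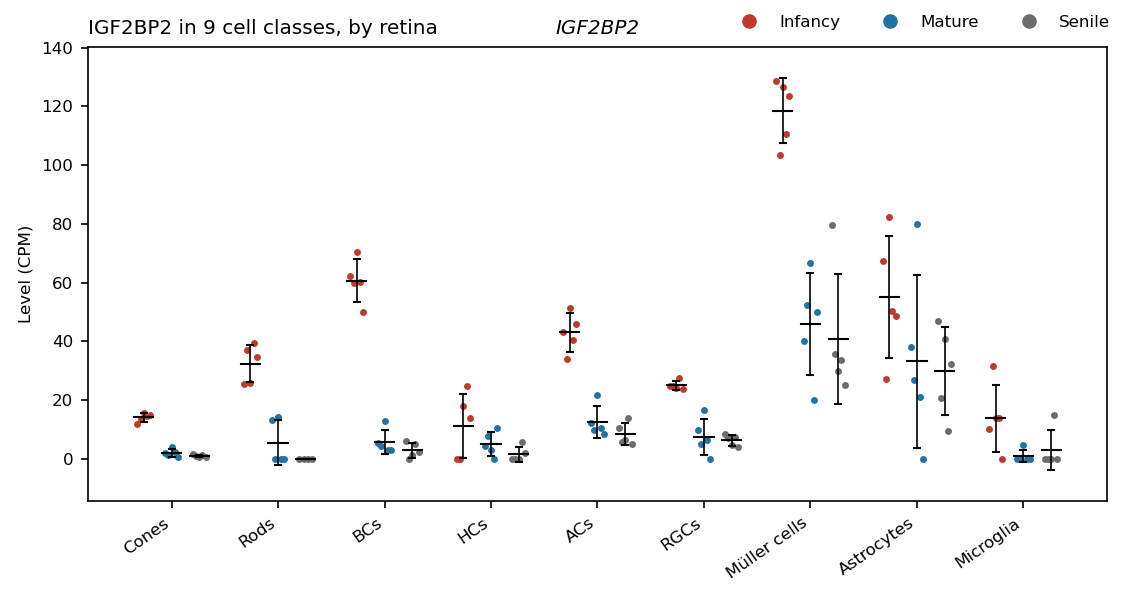
Level of IGF2BP2 in CPM (linear axis) for 9 cell classes on the horizontal axis, with 1 point per retina, colours for the 3 stages, and black bars for the mean ± SD. Infant points lie above all mature and senile points in cones, rods, BCs, ACs, RGCs and Müller cells, and infant Müller cells reach 128.8 CPM. Cone levels are near or under the free-RNA background at each stage, and rods rest on few UMIs.

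The levels of the classes are set side by side at each stage as a description, without a test. Müller cells were 1.956 times as high as BCs in infancy, 8.02 times in mature and 14.1 times in senile retinas, and higher in 5 of 5 retinas at each stage, where the later BC levels were near the free-RNA background (below). Against ACs the ratio of the means was 2.76, 3.67 and 4.89 at the 3 stages. In infancy the order of the means was Müller cells (119 CPM), BCs (60.6), astrocytes (55.2), ACs (43.0), rods (32.4), RGCs (25.0), cones (14.1), microglia (13.8) and HCs (11.3). In mature retinas it was Müller cells (45.8 CPM), astrocytes (33.2), ACs (12.5), RGCs (7.53) and BCs (5.71), with the other classes lower, and in senile retinas Müller cells (40.8), astrocytes (30.0), ACs (8.34) and RGCs (6.24) again led. Astrocytes were below Müller cells in 11 of 15 retinas. BCs were above ACs in 5 of 5 infant retinas and in 0 of 5 mature and 0 of 5 senile ones.

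The share of nuclei with an IGF2BP2 UMI followed the same order of stages. In infant BCs 13.9% ± 4.91 of nuclei (mean ± SD over 5 retinas) held an IGF2BP2 UMI, against 1.87% in mature and 0.773% in senile BCs. In Müller cells the shares were 25.0%, 12.3% and 6.91%, and in ACs 13.03%, 4.53% and 2.13%. Nuclei were not equally deep, with median UMIs in BCs of 1483, 2977 and 1892 at the 3 stages, so each nucleus was thinned to 1000 UMIs. The thinned shares were 5.70%, 0.474% and 0.222% in BCs and 11.6%, 4.48% and 3.69% in Müller cells, in the same order. Infant microglia, where the gene was under the free-RNA background (below), had an unthinned share of 1.66% at a median of 930 UMIs.

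RNA free in the droplets gives each class some UMIs of genes it does not express. As a gauge, the markers of the other classes reached a median of 15.4% to 46.6% of their level over all nuclei in a class, with an upper quartile of 24.8% to 76.0%. Some markers were also high outside their own class, such as MEGF11 (1320 CPM in CHAT ACs, 693 in HCs) and CA10 (1085 CPM in RGCs). The gauge thus holds shared expression as well as free RNA and can overstate the latter. A level under this free-RNA background does not show that a gene was off. Applied to IGF2BP2, this gave an upper-quartile background of 27.6 CPM in infant BCs, which measured 59.0 CPM over the summed UMIs. For infant Müller cells the background was 17.9 CPM and the level 118 CPM, and Müller cells, astrocytes, ACs and RGCs were above the background at all 3 stages. Infant cones, at 14.1 CPM against 13.4, were barely above it, and infant HCs (14.5 against 17.8) and microglia (10.2 against 27.9) were below it. Mature BCs (6.80 CPM against 6.53) and senile BCs (3.39 against 4.15) lay near it, as did mature and senile cones (2.54 against 3.49 and 1.00 against 2.15). How many of the later UMIs were free RNA was not tested.

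Subtypes of a class were set apart by further markers, as a description. BCs with high GRIK1, a glutamate receptor of OFF BCs, and those with low GRIK1 had IGF2BP2 at 60.4 and 61.2 CPM in infancy, and neither was higher throughout (7 of 15 retinas each, with both at 0 in the remaining one). Among ACs, nuclei with CHAT, the enzyme of acetylcholine synthesis in starburst ACs, were at 72.3 CPM in infancy against 39.2 CPM in nuclei low in the glycine transporter SLC6A9. CHAT ACs were the higher in 5 of 5 infant retinas, and in 3 of 5 mature and 2 of 5 senile retinas. In L-cones and S-cones, which differ in their opsin, the infant means were 14.5 and 12.5 CPM.

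Between the mature and senile stages, a contrast the choice of IGF2BP2 did not rest on, no class passed. With edgeR's quasi-likelihood test and p-values adjusted by Benjamini-Hochberg over all genes of a class, senile minus mature ACs differed by -0.65 on the log2 scale (SE 0.30, adjusted p = 0.836). RGCs gave -0.48 and astrocytes -0.43, each with an adjusted p of 1.00, and in Müller cells the difference was -0.25 with a 95% interval of -0.88 to 0.37 and an adjusted p of 0.944. Cones (-1.17) and BCs (-0.82) were near or under the free-RNA background at both later stages, so nothing is read from their tests. Over the members and classes that passed the filter on low counts, 0 of 21 tests of senile minus mature were called. Of these, 3 had a raw p under 0.05, all lower in the senile stage (IGF2BP2 in cones and ACs and IGF2BP3 in Müller cells), where 5.75% of all tests over the 9 classes did, and DESeq2 called 0. Of all genes tested, edgeR called 0.0% in each of the classes in which a member was tested.

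IGF2BP2-AS-4, a noncoding feature that the files name as antisense to IGF2BP2, was lower after infancy in the same direction, without overlap in 4 of 9 classes (cones, BCs, ACs and Müller cells), although in cones the limit for a count of 3 in the fifth mature retina, 2.22 CPM, reached the infant values. These values chose it as well, so they are described without a test. Of the genes that passed the filter on low counts, 0.657% and 0.499% in cones, 0.797% and 0.431% in BCs, 0.593% and 0.21% in ACs and 0.481% and 0.518% in Müller cells had every mature or every senile retina below every infant one. Nothing is read from the place of IGF2BP2-AS-4 among them, and in cones it did not pass this filter. In BCs it was at 12.1, 13.2, 14.6, 10.2 and 3.8 CPM in infancy. In mature BCs it was at 0.2, 1.4, 0.9, 0.4 and 0.5 CPM, and in senile BCs at 1.0, 1.1, 0, 0.1 and 0.3 CPM. All infant retinas were above all later ones, the fifth by the least, and the means differed 15.7-fold and 20.7-fold. Over the summed UMIs the later BC levels were near the free-RNA background (0.722 against 0.643 CPM in mature and 0.385 against 0.603 CPM in senile BCs), as infant cones were (2.19 against 2.17 CPM), while mature and senile cones were under it and Müller cells above it at all 3 stages. Müller cells held 19.0, 22.6, 22.9, 18.1 and 14.9 CPM in infancy, 8.5, 2.4, 3.8, 2.8 and 3.9 CPM in the mature and 7.6, 4.0, 9.4, 1.8 and 4.9 CPM in the senile stage. Again the infant group did not overlap the later groups, whose own values overlapped, and the means were 4.54-fold and 3.54-fold lower. ACs went from 6.7, 5.4, 8.9, 7.3 and 4.5 CPM to 1.9, 1.5, 1.3, 1.2 and 1.0 CPM and to 1.0, 0.8, 1.8, 1.3 and 0.9 CPM, also without overlap between infant and later retinas. Senile minus mature was -0.40 in ACs (adjusted p = 0.886), -0.80 in BCs (0.869), -0.92 in RGCs (1.00) and 0.33 in Müller cells (0.945), and no class passed. Summed over the retinas, mature and senile BCs had only 31 and 11 UMIs and mature and senile Müller cells 34 and 26, so the tests say little about these stages.

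Per 100 IGF2BP2 UMIs, the median retina had 19.4 antisense UMIs in infant, 13.04 in mature and 7.92 in senile BCs. In ACs the ratio was 15.8, 12.4 and 13.3, and in Müller cells 16.4, 7.78 and 11.1. The ranges overlapped at all stages in each of these classes, for example 7.56 to 22.0 in infant and 4.35 to 32.0 in mature BCs. IGF2BP2-AS-4 made up 54.9% of the UMIs of the features named antisense to IGF2BP2 in infancy. IGF2BP2-AS-2, another of them, had mean levels of 6.29, 0.24 and 0.11 CPM in BCs and 10.1, 2.10 and 1.32 CPM in Müller cells at the infant, mature and senile stages.

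**Figure D2:**
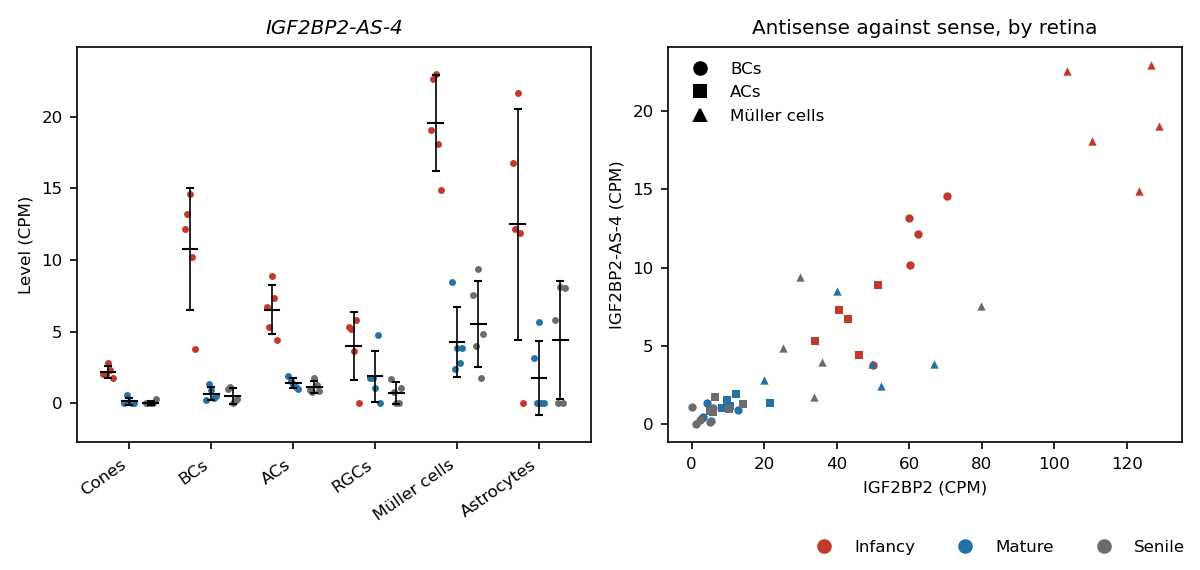
Left, IGF2BP2-AS-4 in CPM for 6 classes, with 1 point per retina and bars for the mean ± SD; right, IGF2BP2-AS-4 against IGF2BP2 in the same retinas, both in CPM, with a symbol for each of 3 classes. Infant retinas are red, mature blue and senile grey, and the infant Müller cells reach the highest levels of both features, with 14.9 CPM or more of the antisense feature.

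IGF2BP3, the paralogue best known from fetal tissue and tumours, was highest in microglia in this retina, and lower in Müller cells. Inner retinal neurons supplied 44.5% of its UMIs, and ACs, RGCs and HCs were above the free-RNA background at all 3 stages. ACs and BCs passed edgeR's test in no comparison, with senile minus infant at 0.43 (SE 0.44) in ACs and -0.20 (SE 0.47) in BCs. Microglia had 151.2, 236.3, 206.7, 192.6 and 275.6 CPM in infancy. They had 159.0, 219.4, 216.9, 107.2 and 260.3 CPM in the mature and 127.5, 211.6, 37.4, 134.8 and 217.6 CPM in the senile stage. The stages overlapped widely, with the third senile retina low, and the means were 212 ± 46.7, 193 ± 59.8 and 146 ± 73.6 CPM (n = 5 each). The senile values rested on 6, 7, 2, 9 and 32 UMIs, and the third lay under its limit for a count of 3, 56.1 CPM. Senile minus infant microglia was -0.58 on the log2 scale (SE 0.33, 95% interval -1.22 to 0.06, adjusted p = 0.828) and mature minus infant -0.29 (SE 0.31, adjusted p = 0.916). Microglia exceeded Müller cells, the next class, in 15 of 15 retinas (two-sided exact sign-flip permutation test over retinas on log2(CPM + 1), p = 6.1e-05, adjusted p = 0.00104 over 34 pairs). This was the smallest p that 15 retinas allow, and the level was far above the free-RNA background at each stage (221 against 2.92 CPM in infancy).

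In Müller cells IGF2BP3 was at 24.6, 21.6, 27.7, 22.4 and 26.4 CPM in infancy. The mature values were 9.7, 10.96, 21.9, 13.1 and 22.7 CPM, and the senile values 15.2, 0, 14.1, 5.3 and 9.7 CPM. Infant and senile retinas did not overlap, as was so for 0.518% of all genes in this class and direction, while 2 mature retinas reached into the infant range. The senile minus infant difference was -1.46 (SE 0.37, 95% interval -2.18 to -0.74) and did not pass after adjustment over 10814 genes (adjusted p = 0.0949), where 0.86% of genes were called. It depended on the fit. DESeq2 gave an adjusted p of 0.00307 and the fit with no low-count filter, which made more calls over all genes (below), 0.0109. The fit with the Cell Ranger version as a term gave 0.0425, the fit blocked on the replicate number 0.0498 and the fit without doublets 0.046. The other alternatives did not call it, among them RLE scaling, the stricter gate, clusters and each retina left out. Within the retinas of one version alone the difference was -1.39 and -1.43 (adjusted p = 0.331 and 0.324). Mature minus infant Müller cells was -0.64 (SE 0.32, adjusted p = 0.644).

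IGF2BP3 in rods and astrocytes rested on few UMIs, most of them from infant retinas. Rods had 6.3, 14.8, 25.9, 19.6 and 31.1 CPM in infancy from 29 UMIs, 0, 0, 0, 3.5 and 7.3 CPM in the mature stage from 3 UMIs, and no UMI in the 4 senile retinas with enough rods. The fifth mature retina was above the first infant one. Single senile retinas could not be placed below the infant ones, since their limits for a count of 3 (as for IGF2BP2) reached the infant values, while over the senile group a count of 3 would be 8.08 CPM, against 23.0 CPM over the summed infant UMIs. Astrocytes had 5.6, 6.1, 17.3, 16.3 and 31.3 CPM in infancy from 27 UMIs, and 1 UMI at each later stage. In astrocytes a count of 3 would be 5.70 to 31.5 CPM in single mature and 12.1 to 61.9 CPM in single senile retinas, so these could not be placed below each infant retina either. As listed, both later groups of astrocytes and senile rods did not overlap with infancy. This was so for 0.548% and 0.524% of the 4200 genes that passed the filter on low counts in mature and senile astrocytes. In senile rods it was so for 1.08% of 3243 such genes. IGF2BP3 was not among these genes. Both classes fell under the filter on low counts, so no test is given in the fit reported here. Without that filter the mature minus infant difference in astrocytes was -3.81 with an adjusted p of 0.0343, in a fit that made more calls over all genes (below).

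The feature named IGF2BP3-AS-1 was also found in microglia and Müller cells, but unlike IGF2BP3 had similar means in infant microglia and infant rods, which were not tested against each other. Its mean level was 57.2, 30.5 and 25.5 CPM in infant, mature and senile microglia and 9.0, 2.85 and 1.52 CPM in Müller cells. Infant rods held 31.7 to 95.1 CPM, a mean of 54.2 ± 25.2 (n = 5), against 7.79 ± 10.3 in mature rods and 8.83 ± 10.5 in 4 senile retinas. It passed the filter only when all nuclei of a retina were summed. There senile minus infant was -1.47 in edgeR's test (SE 0.31, adjusted p = 0.0330) and 15 of 28 alternative fits called it. Of all genes, 0.977% were called in either direction and 0.0759% were called lower. In sums over all nuclei, fewer cells of a type and less RNA per cell cannot be told apart.

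LIN28B, an inhibitor of let-7 maturation, was highest in cones, and in cones, HCs, RGCs and ACs it was above the free-RNA background at all 3 stages. BCs and the 3 glial classes were under theirs at every stage and rods at 2 of 3 stages. LIN28B did not pass the test between any stages in the 5 classes in which it was tested. Rods fell under the filter on low counts and were not tested. Their infant values were 6.3, 7.4, 8.6, 9.8 and 5.5 CPM, from 1 to 3 UMIs in a retina. Mature rods had 39.5, 9.0, 10.8, 7.0 and 10.9 CPM. The senile retinas with enough rods had 41.9, 0, 61.8 and 57.6 CPM, from 3, 0, 7 and 8 UMIs. Cones had LIN28B at 85.9, 76.5, 82.1, 67.1 and 57.8 CPM in infancy. They had 127.4, 57.7, 76.0, 88.9 and 85.9 CPM in the mature and 126.2, 88.1, 92.6, 89.0 and 81.8 CPM in the senile stage. The stages overlapped, and the first mature and first senile retinas were the high ones. Senile minus infant cones was 0.28 (SE 0.18, 95% interval -0.08 to 0.65, adjusted p = 0.900). In HCs the values were 37.5, 31.6, 97.9, 73.8 and 36.0 CPM in infancy, between 53.5 and 113.7 CPM in the mature and between 57.1 and 70.8 CPM in the senile stage, with a difference of 0.16 (SE 0.31, adjusted p = 1.00). RGCs ranged from 36.8 to 57.3, from 36.0 to 69.5 and from 51.6 to 61.9 CPM at the 3 stages, and their senile minus infant interval, -0.19 to 0.43, held no 2-fold change.

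BCs had the one LIN28B difference with a raw p under 0.05. Their levels were 13, 21.2, 18.9, 15.8 and 10.6 CPM in infancy and 30.7, 21.1, 20.3, 8.5 and 22.5 CPM in the mature stage. Senile BCs had 33.6, 25.0, 36.3, 21.9 and 19.8 CPM, so that 4 of 5 were above every infant retina and the fifth was within the infant range. The senile minus infant difference was 0.67 (SE 0.29) and did not pass after adjustment (adjusted p = 0.557). Over the summed UMIs, BCs were at 15.3, 19.8 and 24.2 CPM in the infant, mature and senile stages, each under the free-RNA background of 19.5, 22.7 and 29.6 CPM, which moved in the same direction, whereas infant cones were at 71.8 against 9.47 CPM. The part of free RNA in the BC difference was not tested.

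The order of the classes by LIN28B could be tested, since LIN28B was not chosen on it. Over all retinas cones (85.5 CPM) were above HCs (64.7) in 12 of 15 retinas (exact sign-flip permutation test, adjusted p = 0.0157). HCs and RGCs (53.1 CPM) did not differ beyond their spread (adjusted p = 0.266). RGCs were above ACs (32.3 CPM) in 14 of 15 retinas and ACs above BCs (21.3 CPM) in 15 of 15 (exact, adjusted p = 0.00104 for each). Below BCs came rods (19.7), microglia (10.1), Müller cells (6.13) and astrocytes (5.55), and no 2 neighbours among these differed. Within classes, LIN28B was higher in L-cones than in S-cones in 12 of 14 retinas, and in CHAT ACs than in SLC6A9-low ACs in 14 of 15. BCs with high GRIK1 were above those with low GRIK1 in 14 of 15 retinas, with means of 24.4 and 19.6 CPM. BCs as a class lay under the free-RNA background, and the part of free RNA in this order was not tested.

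LIN28A, the LIN28 protein of embryonic stem cells, had few UMIs, most of them in photoreceptors. Cones gave 50 UMIs, or 0.643 CPM (95% Poisson interval 0.477 to 0.848), and rods 15 UMIs, or 4.98 CPM (2.79 to 8.21). BCs gave 11 UMIs, HCs 1, ACs 1, and RGCs and the 3 glial classes 0. Cones were above BCs in 13 of 15 retinas (exact sign-flip permutation test, adjusted p = 0.00249), while rods and cones did not pass (adjusted p = 0.0556). The cone UMIs were 12, 23 and 15 at the infant, mature and senile stages.

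IGF2BP1, the zipcode-binding paralogue of axonal mRNA transport, was close to the limit of detection. ACs gave 8 UMIs, BCs, RGCs and Müller cells 5 each, and cones 1, with 0 in rods, HCs, astrocytes and microglia. Müller cells had all 5 of theirs in infancy, at 0.634 CPM over the summed UMIs. By stage the classes together held 14, 7 and 3 UMIs. No stage difference was testable at this depth, and the order of its classes showed no neighbour pair beyond the spread.

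HMGA2, the chromatin protein under let-7 control, was a gene of macroglia. In Müller cells it was at 23.5, 24.5, 28.5, 41.0 and 45.1 CPM in infancy. It was at 21.9, 10.96, 15.7, 17.4 and 38.8 CPM in the mature and 11.4, 8.0, 3.1, 31.0 and 9.4 CPM in the senile stage. Each later stage overlapped with infancy, the fourth senile retina by itself reaching the infant range. The senile minus infant difference was -1.34 (SE 0.45, 95% interval -2.23 to -0.45, adjusted p = 0.317). Without the fourth senile retina it was -2.09 with an adjusted p of 0.0272. Over all retinas with no low-count filter, a fit that made more calls over all genes (below), it was -1.37 with an adjusted p of 0.00739. No other alternative fit called it. Infant Müller cells were at a mean of 25.5 CPM in the 3 retinas of the older Cell Ranger version and 43.0 CPM in the 2 of the newer one, while the versions overlapped at the later stages. The senile minus infant difference within each version was -1.40 and -1.55 (adjusted p = 0.241 and 0.628).

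Astrocytes had HMGA2 at 11.2, 30.3, 17.3, 68.2 and 24.3 CPM in infancy. The mature values were 41.4, 17.8, 68.4, 52.5 and 49.4 CPM and the senile ones 70.1, 82.6, 24.4, 91.0 and 44.3 CPM. They rested on few UMIs: 2, 10, 4, 46 and 7 in infancy, 13, 4, 36, 5 and 7 in the mature and 12, 4, 3, 19 and 11 in the senile stage. The first infant value lay under its limit for a count of 3, 16.8 CPM. All stages overlapped, and senile minus infant was 0.66 (SE 0.45, 95% interval -0.23 to 1.54, adjusted p = 0.846), opposite in sign to Müller cells, a contrast of classes that was not tested. Over all retinas astrocytes (46.2 CPM) were above Müller cells (22.0 CPM) in 12 of 15 (exact sign-flip permutation test, adjusted p = 0.0334). This held in 5 of 5 mature and 5 of 5 senile retinas but in only 2 of 5 infant ones, where the means were 30.3 CPM in astrocytes and 32.5 CPM in Müller cells. Müller cells were above rods (2.18 CPM) in 14 of 14 retinas as listed (exact, adjusted p = 0.00104). Most rod values were 0, and in some retinas the limit for a count of 3 in rods was above the Müller level. It was 26.9 against 10.96 CPM in the second mature and 62.7 against 3.1 CPM in the third senile retina. The order could not be placed in such retinas, and the p rests in part on them. Neurons were at 2.18 CPM or less. BCs (1.18 CPM) and cones (0.584 CPM) were under the free-RNA background at all 3 stages. Nothing is read from their difference (adjusted p = 0.0278 by the same exact test), and the part of free RNA in it was not tested.

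**Figure D3:**
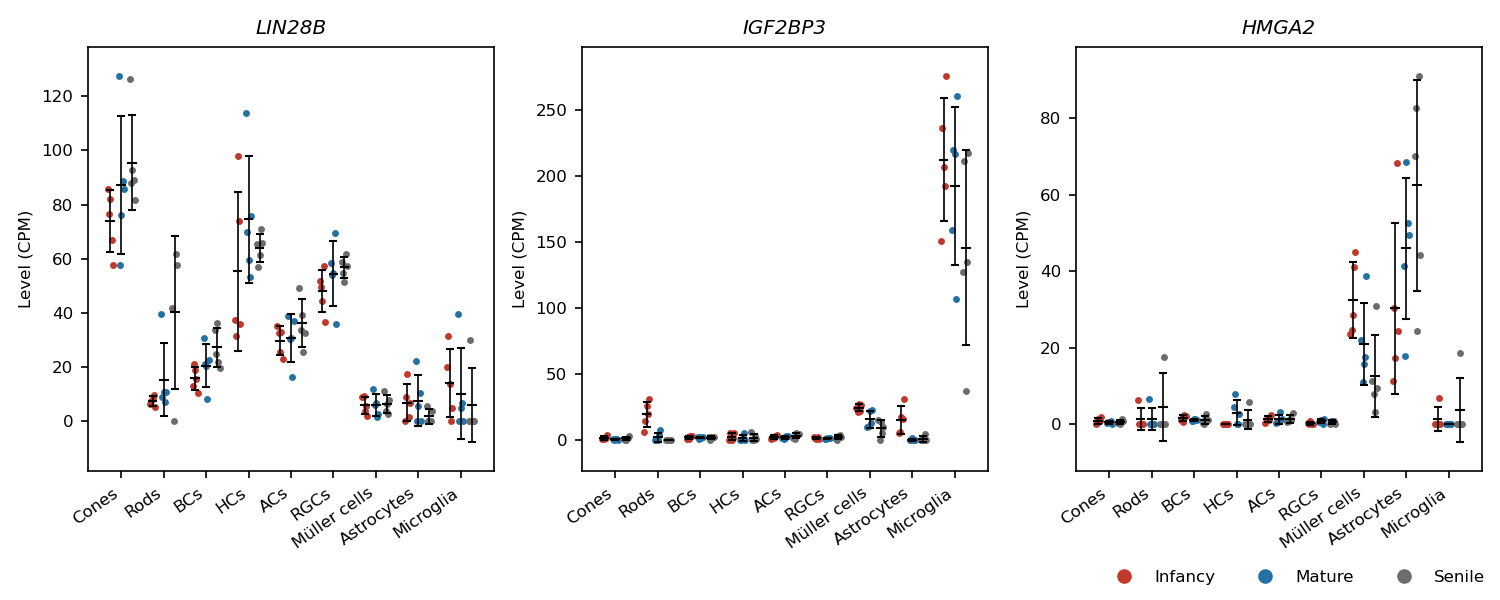
Levels of LIN28B, IGF2BP3 and HMGA2 in CPM (a linear axis of its own in each panel) for 9 cell classes, with 1 point per retina, colours for the 3 stages and bars for the mean ± SD. LIN28B is highest in cones (mean 85.5 CPM), IGF2BP3 in microglia (184 CPM) and HMGA2 in astrocytes (46.2 CPM), and the 3 stages overlap in each of these classes.

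Of the 5 members not picked for their stage values, IGF2BP3, LIN28B and HMGA2 gave 11 tests for each comparison, while IGF2BP1 and LIN28A gave none. For mature minus infant 0 of 11 were called and 0 had a raw p under 0.05, and DESeq2 also called 0. For senile minus infant 0 of 11 were called by edgeR and 3 had a raw p under 0.05, of which 2 were lower in the senile stage (IGF2BP3 and HMGA2 in Müller cells) and 1 higher (LIN28B in BCs), where 7.01% of all tests over the 9 classes had such a p. DESeq2 called 1, IGF2BP3 in Müller cells, where it called 1.5% of all genes. Of all genes tested, mature minus infant calls were 1.05% in cones, 0.679% in BCs, 0.647% in Müller cells, 0.444% in RGCs, 0.268% in ACs, 0.15% in HCs, 0.119% in astrocytes and 0.0637% in microglia. For senile minus infant they were 1.3%, 1.29%, 0.86%, 0.976%, 0.887%, 0.251%, 0.333% and 0.0% in the same classes, so counts near 0 in 11 are close to the background. Of the 34 neighbour pairs in the orders of these 5 members, 9 differed. Among them were the HMGA2 pair of BCs and cones, both under the free-RNA background, and the HMGA2 pair of Müller cells and rods, where some retinas could not be placed.

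**Figure D4:**
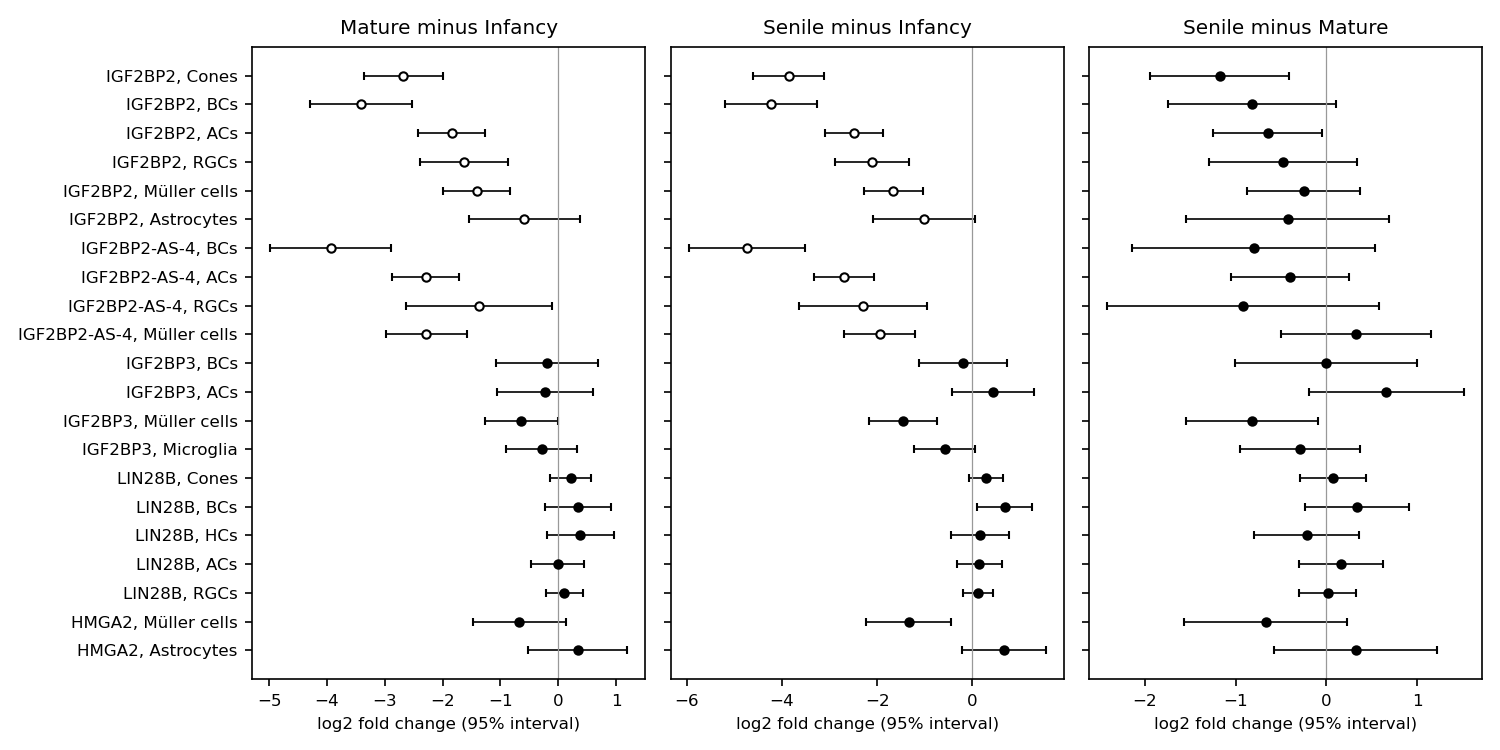
Log2 fold change (points) with an approximate 95% interval (bars) for each member and class that passed the filter on low counts, in 3 panels by comparison, each with its own horizontal scale. Open symbols are IGF2BP2 and IGF2BP2-AS-4 in the comparisons on which they were chosen, from -0.59 in astrocytes down to -4.74 in BCs, and filled symbols were tested, with an adjusted p above 0.05 in every case.

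The wider network was read from 6 lists of 82 genes that passed the filter in at least 1 class, in 486 tests of a gene in a class for each comparison. The lists held let-7 processing and LIN28 cofactors (DICER1, DROSHA, TUT4 and others), growth genes known as let-7 or LIN28 targets (HMGA1, IGF1R, CCND2 and others), IGF2BP partners, writers and readers of N6-methyladenosine, known IGF2BP targets and genes of retinal progenitor timing. By edgeR 0 genes were called in any list, class or comparison, and 20, 24 and 16 of the tests had a raw p under 0.05 for mature minus infant, senile minus infant and senile minus mature. These were 4.12%, 4.94% and 3.29% of the list tests, below the 8.31%, 7.01% and 5.75% of all tests over the 9 classes. DESeq2 called 3, all in senile minus infant, where it called 1.95% of all genes in BCs and 0.677% in HCs. They were CASZ1, a transcription factor of retinal cell fate, at 1.28 in BCs (adjusted p = 0.0362), the growth factor IGF1 at -0.53 in BCs (adjusted p = 0.0455) and FIGN, a microtubule-severing enzyme, at 1.49 in HCs (adjusted p = 0.0458). In BCs the median log2 difference of senile minus infant was -0.12 for let-7 processing, 0.01 for let-7 targets, -0.01 for IGF2BP partners and 0.15 for IGF2BP targets. It was -0.02 for the N6-methyladenosine genes and 0.10 for progenitor timing, beside -0.03 over all genes tested. In Müller cells the same medians were 0.00, 0.04, 0.14, 0.04, 0.06 and 0.05, beside -0.01.

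By the pattern over all retinas and classes, 5 genes were named as the most like IGF2BP2. Over 134 sums of a class in a retina and 13444 genes with a mean of 5 CPM or more, the highest Pearson correlations of log2(CPM + 1) were with LINC-CNTNAP4-1 (0.61), KLHL3 (0.61), SPRY2 (0.60), LINC-ALG10-3 (0.60) and NCAM2 (0.59). The points share libraries and depth, so the values are a description. KLHL3, an adaptor of a ubiquitin ligase, had means of 193, 211 and 224 CPM in infant, mature and senile Müller cells and 18.3, 21.0 and 24.7 CPM in BCs. SPRY2, an inhibitor of growth-factor signalling, had 32.6, 27.2 and 37.6 CPM in Müller cells and 14.6, 13.1 and 12.1 CPM in BCs. In infant, mature and senile BCs NCAM2, a neural cell adhesion molecule, had 372, 346 and 396 CPM, LINC-ALG10-3 had 3.46, 3.48 and 4.07 CPM and LINC-CNTNAP4-1 had 9.45, 6.88 and 4.22 CPM. In BCs none of the 5 came near the 10.6-fold difference between infant and mature IGF2BP2.

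Other cells and the processing were looked at beside these results. Summed marker levels of cell types without a class overlapped between stages over all nuclei of a retina: 87.5 to 149 CPM for retinal pigment epithelium, 60.8 to 91.9 CPM for vessels, 5.64 to 9.94 CPM for oligodendrocytes, 0.909 to 2.86 CPM for fibroblasts and 0.673 to 4.71 CPM for cycling cells, with 2 of 6 cycling markers at 0. Single genes led some sums, with 49328 UMIs of MITF against 2252 of RPE65 for pigment epithelium and 709 of CDK1 against 124 of BUB1 for cycling cells. The vessel marker FLT1 was higher in Müller cells (393 CPM) than in the vessel component (182 CPM). These 3 sums therefore say little about the cells they are named for. The processing differed within each stage, with Cell Ranger 5.0.1 named for 7 retinas and 7.0.1 for 8. Depth differed as well, with median UMIs per barcode of 1461 to 3068 in the older and 2268 to 5611 in the newer set. The version thus stands for a set of libraries and not for the processing alone. Within the retinas of the older version IGF2BP2 differed by -3.76 (mature) and -3.86 (senile) on the log2 scale from infancy in BCs, and by -1.41 and -1.01 in Müller cells. Within the newer version the values were -3.07 and -4.20 in BCs and -1.35 and -2.04 in Müller cells, lower than infancy in both versions.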

How the data were processed

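Retinas of 5 infant, 5 mature and 5 senile TSs were profiled by droplet single-nucleus RNA-seq, and the authors deposited unnormalized UMI counts as 1 matrix of features by barcodes per retina. Per the labels the matrices were made with Cell Ranger 5.0.1 (7 retinas) or 7.0.1 (8 retinas), while the headers of the matrices of the first set name 6.1.2; the study's methods name the TS_3.0 genome, and whether intronic reads were counted is not given in the sources used here. Per the labels the kit was another version than in the methods.

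Nuclei were kept where over 200 and under 6000 genes were detected and mitochondrial UMIs were under 5%. A multinomial mixture of 14 components over fixed marker genes assigned each nucleus a class at a posterior of 0.95 or more with at least 1 own marker. Nuclei of a vessel component (737, of which 356 came from the third senile retina) and 21464 nuclei without a class were set aside. That component also held RNA of other classes, such as the cone marker ARR3 at 1028 CPM. Those without a class were 6303 infant, 6847 mature and 8314 senile nuclei, 2133 of them from the third senile retina. Doublets were left in, except in an alternative that removed 7940. The UMIs were summed per retina and class (at least 10 nuclei) and tested with edgeR 4.0.16 (TMM, filterByExpr, quasi-likelihood, 1 fit of 3 stages per class, R 4.3.3), with p-values adjusted over all genes of the class; SE is the absolute log2 fold change over the root of F. Levels in CPM and exact sign-flip permutation tests used Python 3.11.15 and scipy 1.17.1 with a pseudocount of 1. In data simulated from the BC counts (18168 genes), the fit found 69.5% of genes changed 4-fold and 27.6% of genes changed 2-fold. Alternatives were DESeq2 1.42.0, RLE scaling, no low-count filter, a replicate block, the Cell Ranger version, stricter nuclei and gates, clusters in place of the gate, doublets, and each retina left out. Named are the 7 members, features with their names and a suffix, list genes past an adjusted p of 0.05 (at most 5 per comparison and direction) and the 5 genes most like IGF2BP2. The DESeq2 calls among the list genes were named after their values were seen. The members and lists were chosen with earlier results of these data known. Intervals on UMIs cover counting error only.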

Additional observations from a re-analysis of the deposited data

Results flagged for a closer look

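In 6 of 54 groups of retinas, over 18 pairs of a member and a class, 1 retina lay farther from the others than Dixon's 95% limit for 5 values allows, where chance gives about 1 in 20 groups. The third mature retina was high for IGF2BP2 in BCs (12.7 CPM, next 5.43) and in ACs (21.7 CPM, next 12.1). The fourth infant retina was high for IGF2BP2 in RGCs by a small amount (27.5 CPM, next 24.9). In Müller cells the first senile retina had 79.7 CPM of IGF2BP2 (next 35.8), and the first mature retina had 8.50 CPM of IGF2BP2-AS-4 (next 3.88). LIN28B in cones of the first senile retina was at 126 CPM (next 92.6). What sets these retinas apart was not tested.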

How the results depend on the processing

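IGF2BP2 stayed below infancy at both later stages in every alternative fit (28 each) of cones, BCs, ACs, RGCs and Müller cells. Cone levels and the later BC levels were near or under the free-RNA background, which these fits do not remove. Against -2.68 for mature minus infant cones, leaving out doublets gave -3.12 and leaving out single retinas -3.11 to -2.53, the lowest without the third mature retina. Senile minus infant cones (-3.85) was -3.44 in the retinas of Cell Ranger 5.0.1 alone, -4.28 in those of 7.0.1, -4.41 with clusters, -4.10 without doublets and -4.11 to -3.64 leaving out single retinas. Mature minus infant BCs ranged from -3.99 (without the third mature retina) to -3.25 when single retinas were left out, and senile minus infant Müller cells (-1.67) was -1.01 in version 5.0.1 alone. The causes were not tested. Of the 5 other members, mature minus infant had 1 call with no low-count filter and 0 otherwise. Senile minus infant had 2 calls with no filter (IGF2BP3 and HMGA2 in Müller cells), 1 with the replicate block, 1 with the version in the model, 1 with DESeq2, 1 without doublets and 0 to 1 leaving out single retinas, the 1 without the fourth senile retina. Over all genes, clearly more were called than in the main fit in 20 combinations of class and comparison with no filter. The same held in 25 with DESeq2, 12 with the version in the model and 5 with the replicate block. Apart from DESeq2, the member calls were not set against the share of all genes called in the same fit. IGF2BP3 in Müller cells had adjusted p from 0.00307 to 0.331 over 28 fits, with 0.0616 when clusters replaced the gate (a value whose side of the threshold depended on the numerical precision of the clustering) and 0.046 without doublets. The 9 neighbour pairs became 0 in each stage alone, where 5 retinas allow no exact p below 0.0625. Thinning gave the shares 5.70% in infant BCs and 11.6%, 4.48% and 3.69% in Müller cells. Of the 5 genes most like IGF2BP2, Spearman correlation kept 2 and a minimum of 20 CPM kept 2. The replicate numbers did not pair the retinas (same-number correlations of -0.44 to 0.61, a median of 0.42 against -0.24 for other numbers, with 0.42 within and -0.42 between Cell Ranger versions, and 3 of 15 retinas correlated best with their own number), and with the replicate block IGF2BP2 in BCs was -3.54 and -4.21. Counts over all genes varied more: mature minus infant BCs had 126 calls, 256 by DESeq2, 199 with the version in the model, 19 in the 7.0.1 retinas and 78 to 117 leaving out single retinas, and Müller cells had 70, 131 by DESeq2, 398 with no filter and 13 in the 7.0.1 retinas. Low UMI counts limit IGF2BP1, LIN28A and most members in rods, HCs and microglia, except LIN28B in HCs and IGF2BP3 in microglia, which were tested.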
